A study of Arabidopsis thaliana with 9 samples.

Results

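The transcriptomes of a pair of Arabidopsis thaliana lines that carry different substitutions at glycine 34 of histone H3.3 were compared gene by gene. The lines are labelled h3.3ko;HTR5 G34W and h3.3ko;HTR5 G34R, here called G34W and G34R, and by the usual notation the glycine is exchanged for tryptophan in G34W and for arginine in G34R. Both carry the background marked h3.3ko, and 3 libraries of wild type (Col) give the unmodified level. The 6 libraries of the lines, 3 for each, are 6 of the 9 in the series, and all 9 were made from 10-day-old seedlings raised in long days (16 h light, 8 h dark) at 22 °C. Of the 27655 genes listed, the 18588 with a mean of at least 1 TPM (transcripts per 1000000) over the 6 libraries were tested. The comparison asks what the tryptophan and arginine substitutions do differently in one background. No h3.3ko line with an intact HTR5 was analysed here, and the sources used here give neither how HTR5 was modified nor how many independent plants founded each line. Differences between the substitutions and other differences between the lines cannot be told apart.

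The H3.3 variant of histone H3 enters chromatin independently of DNA replication, chiefly over transcribed genes, whereas H3.1 is placed at replication. Glycine 34 lies on the histone tail beside lysine 36, whose methylation marks transcribed genes, and in animals bulky residues at position 34 hinder the enzymes that methylate lysine 36 on the same tail. In Arabidopsis HTR4, HTR5 and HTR8 encode H3.3, and the 3 predicted proteins are identical over the 135 residues after the first methionine. The coding stretches for residues 28 to 40 are shown because they hold the exchanged codon, in capitals, counted without the first methionine. They were read from the reference genome, not from the lines, and HTR1, an H3.1 gene, is set beside them.
HTR5: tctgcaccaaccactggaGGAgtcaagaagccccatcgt
HTR4: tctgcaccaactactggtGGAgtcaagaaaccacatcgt
HTR8: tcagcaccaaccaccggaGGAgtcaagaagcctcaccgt
HTR1: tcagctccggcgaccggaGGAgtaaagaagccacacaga
The stretches lie on the minus strand of the TAIR10.1 assembly at chr4:18558027-18558065 (HTR5), chr4:18556213-18556251 (HTR4), chr5:3472969-3473007 (HTR8) and chr5:26120387-26120425 (HTR1). All 4 genes use GGA for glycine 34 and AAG for lysine 36. Within the stretch the encoded H3.1 tail differs at residue 31, alanine in HTR1 and threonine in the H3.3 genes, and the whole proteins differ at 4 residues.

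HTR5, the gene that carries the substitution, was expressed at nearly the same level in both lines. It had 382, 368 and 389.6 TPM in G34W, against 359.7, 353 and 357 TPM in G34R and 331, 335 and 334 TPM in wild type. The difference of 0.09 on the log2(TPM + 1) scale (SE 0.03, adjusted p = 0.0498) passed the threshold of 0.05 narrowly and was lost in 11 of the 16 alternative analyses. HTR4 had 161, 152 and 165 TPM in G34W, against 132, 135 and 137 TPM in G34R and 438, 408 and 408 TPM in wild type, a difference of 0.24 ± 0.04 (log2 ± SE, adjusted p = 0.000731). HTR8 was near the lower end in both lines, with 6.69, 4.65 and 5.24 TPM in G34W, 5.07, 3.92 and 5.86 TPM in G34R and 214, 207 and 209.8 TPM in wild type, and was not called (log2 difference 0.13, SE 0.16, adjusted p = 0.551). The lines were thus close to each other at the 3 H3.3 genes, while both lay far below wild type at HTR8 and below it at HTR4.

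The genes just upstream of HTR5 did differ. AT4G40042, which encodes a subunit of the microsomal signal peptidase, had 127, 119 and 109 TPM in G34W, against 54.4, 48.9 and 52.3 TPM in G34R and 23.4, 22.6 and 19.3 TPM in wild type. AT4G40045, an uncharacterized gene on the HTR5 strand, had 126, 135 and 120.3 TPM in G34W, against 37.4, 33.0 and 29.6 TPM in G34R and 52.7, 39.6 and 39.7 TPM in wild type. Both were higher in G34W, by 1.17 ± 0.06 and 1.90 ± 0.07 (log2 ± SE), and the gene after them, AT4G40050, had a difference of 0.02 with an adjusted p of 0.845. The single largest difference of the comparison was at AT1G53200, annotated as a TAF RNA polymerase I subunit A, with 215, 210.1 and 204 TPM in G34W, against 4.85, 5.23 and 5.88 TPM in G34R and 5.38, 5.32 and 5.89 TPM in wild type. G34R lay at the level of wild type there and G34W was 39.4-fold above G34R, while the next gene, AT1G53210, was slightly lower in G34W, by 0.31 on the log2 scale. These 3 loci were chosen after their values were seen.

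**Figure D1:**
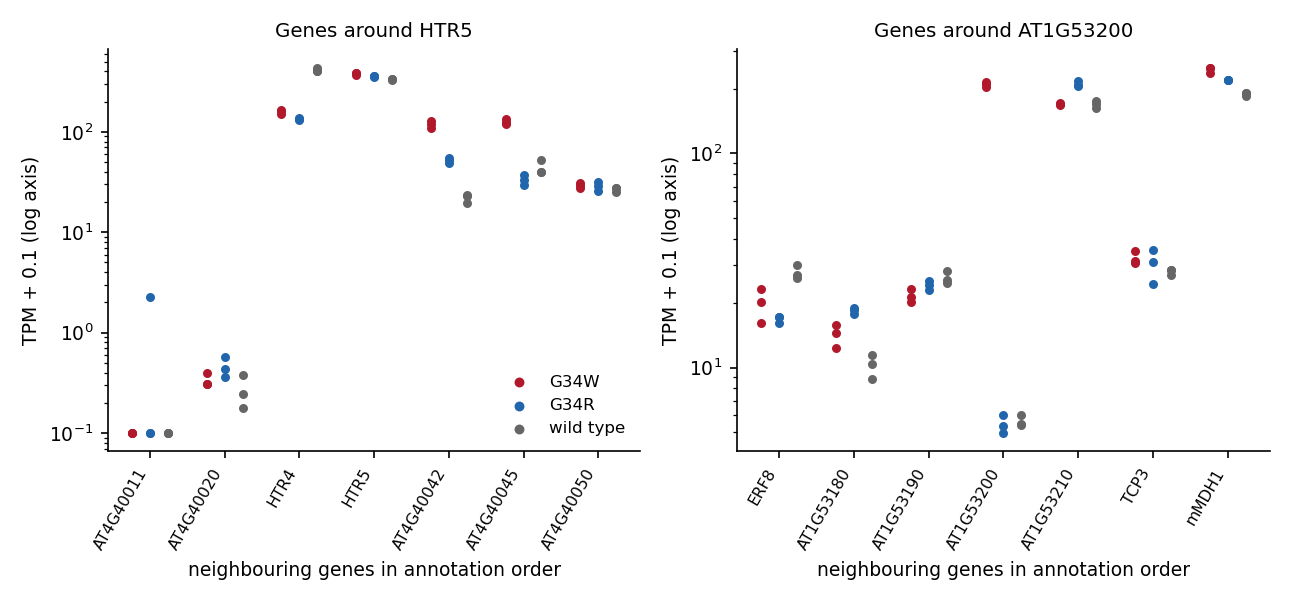
TPM in each library (points, log axis, 0.1 added) of the genes around HTR5 and around AT1G53200, in annotation order, for G34W, G34R and wild type. In G34W the points of AT4G40042 and AT4G40045 lie above those of G34R while those of HTR5 itself lie close together, and AT1G53200 lies at 215, 210.1 and 204 TPM in G34W, far above its points in G34R and wild type.

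Across the tested genes, limma called 3802 genes (20.5%) higher and 2187 (11.8%) lower in G34W at an adjusted p under 0.05, 32.2% in all. The list counts given below are to be read against these shares. Most differences were small. Of the called genes, 79.7% differed by less than 1.5-fold, and the median difference was 0.37 among those higher and -0.39 among those lower, on the log2 scale. In 29.2% of the tested genes all 3 G34W libraries lay above all 3 of G34R, and in 16.0% all 3 lay below. At 2-fold or more there were 119 genes higher (0.64%) and 138 lower (0.742%), and these counts were 224 and 233 with a pseudocount of 0.1, 212 and 262 with limma's voom on recovered reads, and 61 and 69 after raising the filter to a mean of 5 TPM. The excess of higher calls depended on scaling: 63.5% of the called genes were higher with the deposited TPM, 46.9% after median-ratio scaling and 50.2% after quantile normalization, and the median of all tested genes lay at 0.07 with the deposited TPM and at 0.01 after either. Each library held 13569963 to 14322281 recovered reads in G34W and 14258184 to 14739554 in G34R. The first principal component, 61% of the variance among the 6 libraries, separated the lines, and the second, 12.5%, set G34R replicate 1 apart from G34R replicate 3. On log2(TPM + 1), libraries of one line correlated at 0.99 to 0.9924 and libraries of different lines at 0.9757 to 0.9785. Whether the replicates came from separate plantings is not stated. The p-values therefore set the difference between lines only against the spread among these libraries, which can be technical.

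**Figure D2:**
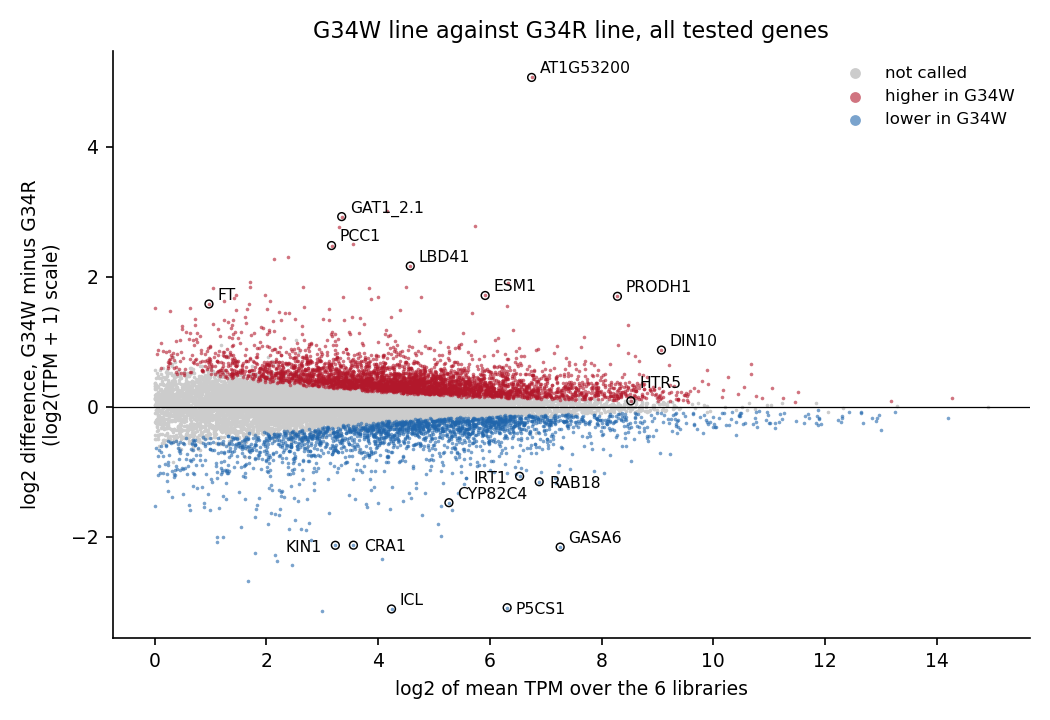
Log2 difference between G34W and G34R (y axis, log2(TPM + 1) scale) against log2 mean TPM over the 6 libraries (x axis) for the 18588 tested genes, with called genes in colour and some named genes circled. Most called genes lie close to 0, and AT1G53200, GAT1_2.1, ICL and P5CS1 stand farthest from it among the labelled genes.

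Genes that make and break down proline differed strongly, in opposite directions. Proline builds up in plants under drought and salt. P5CS1 encodes the enzyme that starts its synthesis from glutamate, and PRODH1 the mitochondrial enzyme that starts its breakdown. P5CS1 had 15.9, 16.2 and 15.6 TPM in G34W, against 137, 144 and 148 TPM in G34R and 127, 135 and 135.8 TPM in wild type. The G34W libraries lay 8.99-fold below those of G34R on mean TPM (log2 difference -3.09, SE 0.06, adjusted p = 1.11e-13), and G34R lay close to wild type. PRODH1 went the other way, with 468, 486 and 478 TPM in G34W, against 139, 151 and 149.8 TPM in G34R and 269, 275 and 268 TPM in wild type, so that wild type lay between the lines and G34W was 3.26-fold above G34R (log2 difference 1.70, SE 0.04, adjusted p = 1.76e-12). The proline transporter gene PROT2 was lower in G34W by 0.39 (SE 0.08). P5CDH, the second enzyme of breakdown, had a difference of 0.25 whose call (adjusted p = 0.0304) was lost in 8 of the 16 alternatives, among them the fits without any 1 library other than G34R replicate 3. Of the 9 proline genes 2 were called higher and 2 lower, and their median of 0.07 equalled that of all tested genes.

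Genes that abscisic acid, cold and drought induce were mostly lower in G34W. The 20 listed COR genes include, but are not limited to, those of dehydrins and other protective proteins. Of the 20, 16 (80.0%) were called lower and 1 higher, where 11.8% of all tested genes were lower and 20.5% higher. Their median difference was -0.76 against 0.07 over all tested genes. RAB18, a dehydrin gene, had 69.3, 72.4 and 77.1 TPM in G34W, against 163, 168 and 159 TPM in G34R and 123, 119 and 119 TPM in wild type. RD22, a drought-induced gene, had 179, 170.3 and 175 TPM in G34W, against 358, 352 and 357 TPM in G34R and 355, 337 and 339 TPM in wild type. KIN2 had 66.1, 57.2 and 58.3 TPM in G34W, against 121, 117 and 109 TPM in G34R and 107, 105 and 97.9 TPM in wild type, and its neighbour copy KIN1 had 3.38, 4.60 and 1.24 TPM in G34W, against 18.8, 14.5 and 14.1 TPM in G34R. The lines did not overlap at any of these 4 genes, as was so in this direction for 16.0% of all tested genes. The differences were -1.15 ± 0.05 for RAB18, -1.02 ± 0.04 for RD22, -0.92 ± 0.06 for KIN2 and -2.13 ± 0.25 for KIN1 (log2 ± SE). KIN1 and KIN2 are near-identical and may exchange reads. COR413-PM1, a membrane protein gene, was lower by 0.75 (SE 0.04). The 1 member called higher, HVA22D at 0.19, lost its call in 5 alternatives, including those without G34W replicate 1 or replicate 2. For RAB18 and KIN2 the wild-type level lay between the lines, and for RD22 it lay near G34R.

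**Figure D3:**
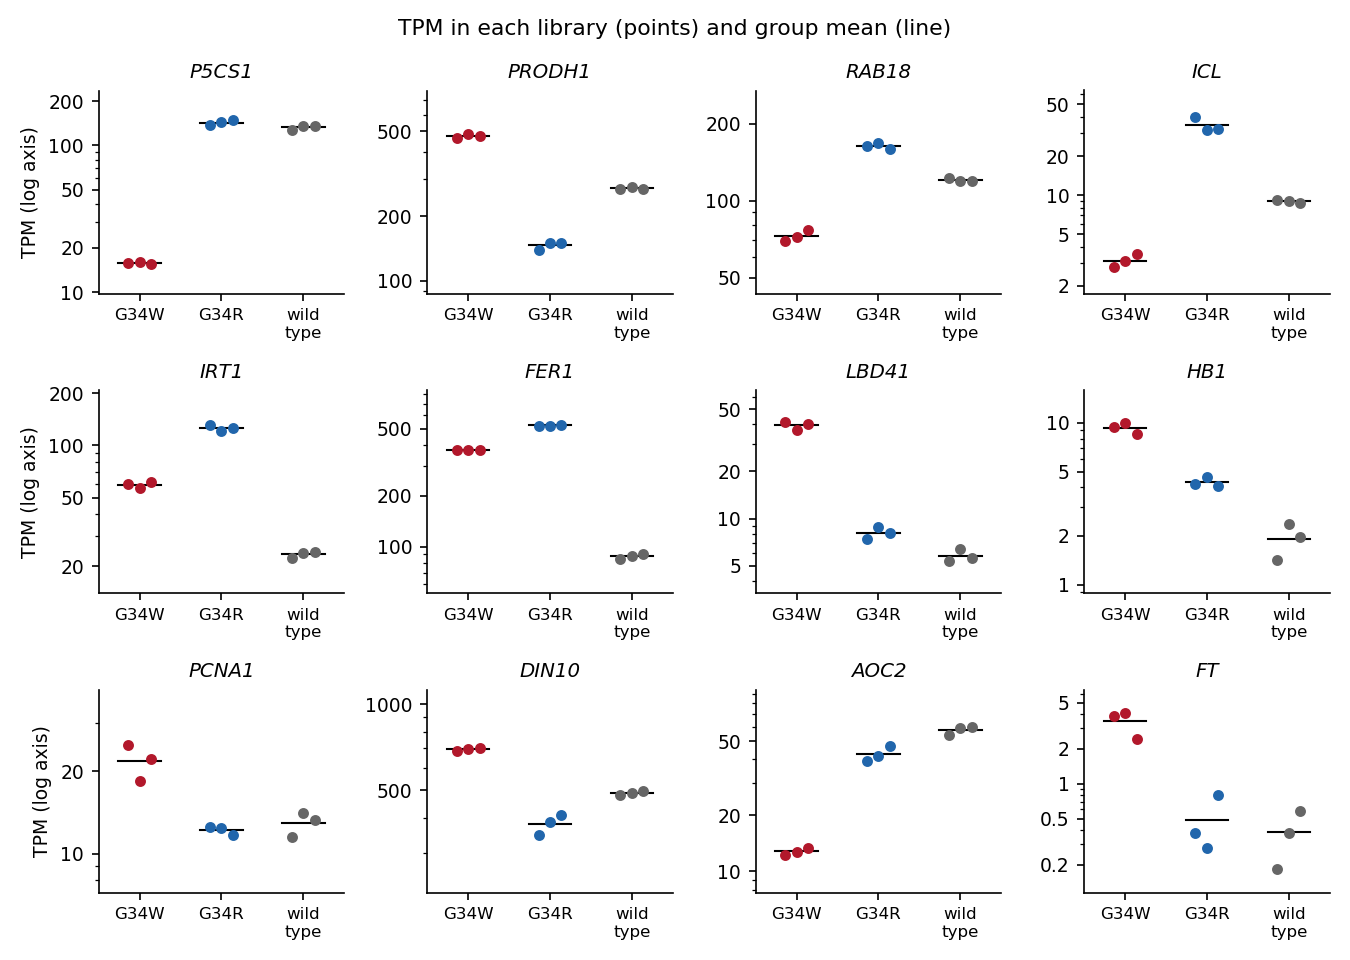
TPM of 12 genes in each library (points, log axes) with the mean of each group (line), for G34W, G34R and wild type. P5CS1, RAB18, ICL, IRT1, FER1 and AOC2 are lower in G34W than in G34R, and PRODH1, LBD41, HB1, PCNA1, DIN10 and FT are higher, with no overlap between the lines in any panel. Lack of overlap was a condition for naming the largest differences. Of all tested genes, 29.2% had every G34W library above those of G34R and 16.0% had every one below.

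The clade A protein phosphatases, which hold back the abscisic acid signal and are themselves induced by it, were mostly lower too. Of the 6 tested of 9 listed, 5 (83.3%, against 11.8% of all tested genes) were called lower, with a median of -0.52. PP2CA had 53.6, 46.6 and 43.6 TPM in G34W, against 81.0, 87.9 and 88.6 TPM in G34R and 84.0, 81.0 and 77.2 TPM in wild type. HAI1 was lower by 1.02 (SE 0.13), ABI2 by 0.65 (SE 0.10) and ABI1 by 0.31 (SE 0.06). Among genes annotated as late embryogenesis abundant proteins 24 of 60 tested were called lower and 2 higher, with a median of -0.20; the higher calls numbered 1 without G34W replicate 2 or 3 and 4 without G34R replicate 3. LEA7 was among the 12 genes that fell most, at 2.31 ± 1.103 TPM in G34W and 10.8 ± 0.407 TPM in G34R (SD, n = 3 each).

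The bZIP factors that act downstream of abscisic acid bind elements with the core ACGTG. The core, searched on both strands, occurred in the 200 bases before the annotated start of 20.7% of the tested genes with a window (3833 of 18509), of 27.9% of the genes called lower, of 18.5% of those called higher, of 40.6% of those at least 2-fold lower (56 of 138) and of 21.0% of those at least 2-fold higher. Among the COR genes 12 of 20 windows held it, and these include members that were not called lower. Of the COR genes called lower, COR47, RD29A, ERD10, LTI30, COR413-PM1, NCED3 and GOLS2 lacked it, so it did not mark the lower members. The P5CS1 window held none. The windows of RD22, RD29B and COR15A are shown as examples of how the core stands there, on its own in RD22, in 4 copies in RD29B and within the palindrome CACGTG in COR15A. The core on either strand is in capitals, and the sequences are on the coding strand and end at the base before the start.
RD22: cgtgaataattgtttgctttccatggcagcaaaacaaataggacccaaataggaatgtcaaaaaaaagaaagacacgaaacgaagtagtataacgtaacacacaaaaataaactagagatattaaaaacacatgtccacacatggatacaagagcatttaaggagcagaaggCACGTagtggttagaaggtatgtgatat
RD29B: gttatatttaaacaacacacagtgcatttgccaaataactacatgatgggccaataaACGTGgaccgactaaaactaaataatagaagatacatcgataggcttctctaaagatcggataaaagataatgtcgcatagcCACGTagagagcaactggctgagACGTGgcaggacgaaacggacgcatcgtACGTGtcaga
COR15A: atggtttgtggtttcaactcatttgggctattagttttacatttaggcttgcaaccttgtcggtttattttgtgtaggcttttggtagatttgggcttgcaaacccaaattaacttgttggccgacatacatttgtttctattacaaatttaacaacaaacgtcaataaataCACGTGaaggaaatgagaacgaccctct
They lie at chr5:8916857-8917056 (minus strand), chr5:21236821-21237020 (plus strand) and chr2:17712331-17712530 (minus strand) of the TAIR10.1 assembly. RD29B was lower in G34W by 0.78 (SE 0.10) and COR15A by 1.67 (SE 0.15); both were chosen after their values were seen. A match describes the letters only, and binding was not measured.

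Genes of seed reserves and of their use after germination were lower in G34W. ICL encodes isocitrate lyase and MLS malate synthase, the pair of enzymes particular to the glyoxylate cycle that turns seed oil into sugar. ICL had 2.78, 3.08 and 3.51 TPM in G34W, against 39.98, 31.7 and 32.4 TPM in G34R and 9.23, 9.07 and 8.72 TPM in wild type (log2 difference -3.11, SE 0.11, adjusted p = 3.69e-10). MLS had 2.03, 2.44 and 3.08 TPM in G34W, against 11.2, 12.1 and 10.13 TPM in G34R and 6.59, 6.89 and 6.68 TPM in wild type (log2 difference -1.79, SE 0.14, adjusted p = 4.71e-07). Of the 5 genes of this list 4 (80.0%, against 11.8% of all tested genes) were called lower, and the list median was -0.60. Beside ICL and MLS these were the peroxisomal citrate synthase gene CSY3 at -0.60 ± 0.08 and PCK1, which makes phosphoenolpyruvate for sugar synthesis, at -0.21 ± 0.04. Among seed storage and maturation genes only 6 of the 23 listed reached the mean of 1 TPM. Of these 4 (66.7%) were called lower and OLEO4, an oleosin gene, was called higher at 0.80 ± 0.15. The storage globulin gene CRA1 had 4.14, 3.95 and 3.204 TPM in G34W, against 17.8, 20.24 and 21.4 TPM in G34R and 0.535, 0.157 and 0.218 TPM in wild type. EM1, a late embryo gene, had 0, 0.287 and 0.275 TPM in G34W, against 3.04, 3.32 and 6.16 TPM in G34R, and PER1, a peroxiredoxin gene of dormant seeds, had 3.002, 2.09 and 2.12 TPM in G34W, against 6.94, 8.86 and 6.29 TPM in G34R. For CRA1, EM1 and ICL the G34R values lay above those of wild type as well.

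Many genes of the response to iron shortage, regulators and uptake genes alike, were lower in G34W. The related bHLH factors of the Ib group, switched on when iron is short, act with FIT to turn on IRT1, the root iron importer, and FRO2, the root ferric reductase. Of 15 regulators 7 (46.7%) were called lower and 1 higher (median -0.43), where 11.8% of all tested genes were lower and 20.5% higher. BHLH38 had 1.49, 1.18 and 1.01 TPM in G34W, against 5.35, 4.26 and 5.15 TPM in G34R and 1.72, 1.91 and 0.756 TPM in wild type. BHLH100 had 1.38, 2.47 and 1.83 TPM in G34W, against 7.05, 6.14 and 9.64 TPM in G34R and 2.26, 1.86 and 3.33 TPM in wild type. The member called higher was OPT3, a phloem transporter gene, at 0.34 ± 0.05. Of 15 tested uptake genes 8 (53.3%) were called lower and 1, NAS4, higher at 0.46 ± 0.08 (median -0.46). IRT1 had 60.02, 57.1 and 61.3 TPM in G34W, against 131, 121 and 126 TPM in G34R and 22.4, 23.8 and 24.3 TPM in wild type. FRO2 had 10.53, 10.8 and 8.82 TPM in G34W, against 20.04, 19.7 and 22.8 TPM in G34R and 4.40, 5.86 and 5.52 TPM in wild type. CYP82C4, an enzyme that makes a secreted coumarin under iron shortage, had 21.7, 17.8 and 20.4 TPM in G34W, against 53.5, 56.4 and 61.6 TPM in G34R and 3.66, 3.69 and 4.77 TPM in wild type. NAS2, which makes the metal chelator nicotianamine, was lower by 1.23 (SE 0.11). For IRT1, FRO2, CYP82C4 and NAS2 all 6 line libraries lay above all 3 of wild type, so G34W stood between wild type and G34R. For BHLH38 and BHLH100 the libraries of G34W and wild type overlapped at low levels, with the mean of G34W below that of wild type.

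Several iron storage genes were also lower. FER1, the main leaf ferritin gene, which rises when iron is plentiful, had 374, 374 and 374 TPM in G34W, against 519.9, 518 and 528 TPM in G34R and 84.9, 88.1 and 91.0 TPM in wild type (log2 difference -0.48, SE 0.03, adjusted p = 4.04e-08). Of 10 tested storage genes 5 were called lower and 1 higher (median -0.22), and the lower calls numbered 3 without any 1 of the G34W libraries. The higher call, FER4 at 0.23 (adjusted p = 0.0288), was lost in 8 alternatives, among them the fits without G34R replicate 1 or 2 and without G34W replicate 1 or 2. Some genes of iron uptake and some of iron storage, which usually move in opposite directions, were thus lower in G34W than in G34R.

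Some other root genes were lower as well. Suberin is the waxy polymer laid down in the root endodermis. Of its 17 listed genes 11 (64.7%, against 11.8% of all tested genes) were called lower and 1 higher (median -0.39). FAR4, a fatty acyl reductase gene, had 5.44, 5.26 and 4.51 TPM in G34W, against 9.20, 9.03 and 9.23 TPM in G34R. ASFT, which adds ferulate, had 26.97, 24.8 and 26.3 TPM in G34W, against 32.1, 39.0 and 36.1 TPM in G34R, and MYB92, a regulator of suberin, was lower by 0.74 (SE 0.14). KCS20, which elongates fatty acids for waxes and suberin, was the 1 called higher, at 0.47 ± 0.04. Without G34W replicate 2 the lower calls numbered 7. Among 15 tested root hair genes 4 were called lower (26.7%, against 11.8% of all tested genes; median -0.30), but 2 without G34R replicate 2, G34W replicate 1 or G34W replicate 3, which is near the share over all genes. LRL3, a root hair bHLH factor, was lower by 0.60 (SE 0.14) and PRP3, a root hair wall protein gene, by 0.49 (SE 0.09). In the Casparian strip list 3 of 12 tested genes were called lower, 2 without G34W replicate 1 and 5 without G34W replicate 2, with CASP1 at -0.26 ± 0.06, while SCR, which specifies the endodermis, was called higher at 0.34 ± 0.08. The summed level of the root hair list was 72.4 to 81.9 TPM in G34W, 94.2 to 110.3 TPM in G34R and 28.4 to 29.1 TPM in wild type. In whole seedlings fewer cells of a type and less RNA per cell cannot be told apart, and the part that root cell number has in the iron result was not tested.

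Jasmonate genes were split. AOC2, AOS and LOX2 encode 3 successive plastid steps of jasmonate synthesis, and all were lower in G34W. AOC2 had 12.3, 12.7 and 13.4 TPM in G34W, against 39.4, 41.6 and 47.1 TPM in G34R and 54.2, 59.3 and 59.4 TPM in wild type (log2 difference -1.66, SE 0.08, adjusted p = 5.99e-09). AOS had 93.6, 91.1 and 88.9 TPM in G34W, against 185, 199.8 and 202 TPM in G34R and 234, 221 and 243 TPM in wild type, and LOX2 had 30.96, 31.7 and 28.1 TPM in G34W, against 63.0, 65.2 and 68.4 TPM in G34R and 52.0, 50.9 and 52.5 TPM in wild type. The lines did not overlap, as for 16.0% of all tested genes in this direction, and the differences were -1.09 ± 0.05 for AOS and -1.09 ± 0.06 for LOX2. A related lipoxygenase gene, LOX3, was higher, with 1.64, 2.24 and 2.37 TPM in G34W, against 0.604, 0.562 and 0.425 TPM in G34R. Of the 13 tested synthesis genes 3 (23.1%) were called lower and 2 (15.4%) higher, against 11.8% and 20.5% of all tested genes. The second higher call was LOX4, whose call was lost without any 1 of the 6 libraries. Of 7 tested genes of the jasmonate output 5 (71.4%) were called lower and 1 (14.3%) higher, with a median of -0.53. VSP1, a vegetative storage protein gene and a common marker of the response, had 22.8, 24.5 and 20.5 TPM in G34W, against 39.3, 43.0 and 39.3 TPM in G34R and 11.95, 9.42 and 10.7 TPM in wild type. CORI3 was lower by 1.32 (SE 0.18) and the chitinase gene PR3 by 0.66 (SE 0.11). The higher call, MYC4 at 0.24, was lost without G34R replicate 1 or 2 and without G34W replicate 2 or 3.

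Glucosinolates are the defence compounds of this plant family. Of 14 tested genes of the indole branch 8 (57.1%) were called higher and 3 (21.4%) lower (median 0.24), against 20.5% and 11.8% of all tested genes. The lower calls numbered 1 without G34R replicate 2, G34W replicate 1 or G34W replicate 3. CYP83B1, which commits the pathway, had 120.2, 121 and 119 TPM in G34W, against 68.0, 73.8 and 66.0 TPM in G34R and 74.0, 74.6 and 71.9 TPM in wild type. CYP79B3, the step before it, was higher by 0.47 (SE 0.05), while MYB34, the factor that activates both, was lower by 0.61 (SE 0.06), so regulator and targets differed in opposite directions. On the breakdown side 8 of 16 tested genes were called lower and 3 higher (median -0.18), with 1 higher call without G34R replicate 1, G34R replicate 2 or G34W replicate 1. ESM1, which steers breakdown toward isothiocyanates, had 90.8, 97.5 and 90.9 TPM in G34W, against 29.1, 26.9 and 27.4 TPM in G34R and 75.8, 73.8 and 70.5 TPM in wild type (log2 difference 1.71, SE 0.06, adjusted p = 1.79e-10). TGG2, a myrosinase that cleaves glucosinolates, had 126, 123 and 116 TPM in G34W, against 179, 190.4 and 192 TPM in G34R and 175, 174 and 173 TPM in wild type. The nitrile specifier genes NSP1 and NSP5 were lower by 0.36 (SE 0.03) and 0.43 (SE 0.03). Of the tau class glutathione transferases, which detoxify by adding glutathione, 14 of 22 tested (63.6%, against 11.8% of all tested genes) were called lower and 1 higher (median -0.30). GSTU25 had 42.0, 45.9 and 42.2 TPM in G34W, against 89.3, 85.6 and 82.3 TPM in G34R and 16.5, 13.5 and 15.5 TPM in wild type.

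Several genes that answer low oxygen and low sugar were higher in G34W. LBD41, a transcription factor gene of the core low oxygen response, had 41.5, 37.0 and 40.4 TPM in G34W, against 7.36, 8.88 and 8.04 TPM in G34R and 5.33, 6.39 and 5.62 TPM in wild type (log2 difference 2.16, SE 0.09, adjusted p = 9.92e-10). HRA1, which restrains that response, had 7.38, 7.46 and 8.63 TPM in G34W, against 2.31, 1.78 and 2.72 TPM in G34R and 2.94, 2.79 and 2.502 TPM in wild type. HB1, a nonsymbiotic haemoglobin gene, had 9.38, 9.97 and 8.58 TPM in G34W, against 4.18, 4.61 and 4.05 TPM in G34R and 1.42, 2.38 and 1.96 TPM in wild type, and HRE1, an ERF factor gene, was higher by 0.92 (SE 0.14). Of 10 tested genes of 13 listed 5 were called higher and 1 lower, against 20.5% and 11.8% of all tested genes, with a median of 0.64. The gene called lower was SUS1, a sucrose synthase gene, at -0.47 ± 0.12. Without G34W replicate 2 there were 2 lower calls. ADH1, the alcohol dehydrogenase gene often used as a marker, had 4.2996, 4.35 and 4.81 TPM in G34W, against 4.296, 3.0005 and 2.68 TPM in G34R and was not called (log2 difference 0.36, adjusted p = 0.1).

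Of 15 tested sugar starvation and senescence genes 8 (53.3%) were called higher and 2 (13.3%) lower, with a median of 0.42. Among all tested genes 20.5% were higher and 11.8% lower. DIN10, a raffinose synthase family gene induced in the dark, had 686, 698 and 704 TPM in G34W, against 349, 385 and 408 TPM in G34R and 482, 490.0 and 497 TPM in wild type. DIN1 had 199.8, 188 and 191 TPM in G34W, against 109, 99.9 and 93.9 TPM in G34R and 297, 324 and 316 TPM in wild type, and BT1, a scaffold protein gene repressed by sugar, had 121, 110.0 and 113 TPM in G34W, against 58.6, 64.6 and 65.0 TPM in G34R and 358, 345 and 351 TPM in wild type. For DIN1 and BT1 wild type lay above both lines, while for DIN10 it lay between them. SAG21 was higher by 0.58 (SE 0.05), and the lower calls were NAP, a senescence factor gene, at -0.63 ± 0.07, and DIN6, an asparagine synthetase gene, at -0.24 ± 0.05. Nitrate reductase genes were higher too. NIA1 had 147, 152 and 153 TPM in G34W, against 76.9, 77.8 and 87.8 TPM in G34R and 91.3, 90.2 and 94.8 TPM in wild type. NIA2 had 1084, 1134 and 1149.7 TPM in G34W, against 711, 758 and 814 TPM in G34R and 907, 929 and 931 TPM in wild type.

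Photosynthesis genes were lower by a small amount. Of 37 nuclear light-harvesting and photosystem genes 30 (81.1%) were called lower and 3 (8.11%) higher, with a median of -0.18. Of all tested genes 11.8% were lower and 20.5% higher. After quantile normalization 17 of the list were lower and 5 higher and the median was -0.01, while after median-ratio scaling 31 were lower and 2 higher. PSBR, a subunit of photosystem II, had 7314, 7147 and 7131 TPM in G34W, against 9125, 9306 and 9133 TPM in G34R and 7399.6, 8092 and 8037 TPM in wild type (log2 difference -0.35, SE 0.02, adjusted p = 9.93e-09). PSAH1, of photosystem I, had 568, 550.2 and 562 TPM in G34W, against 744, 731 and 759 TPM in G34R and 685, 705 and 700.3 TPM in wild type. The list summed to 182666 to 184165 TPM in G34W, 193142 to 206537 TPM in G34R and 219459 to 221591 TPM in wild type. The Calvin cycle genes were mixed, with 8 called lower and 3 higher of 17 (median -0.03), and after quantile normalization 5 lower and 8 higher; without G34R replicate 3 there were 5 higher. CP12-2, a regulator of the cycle, was lower by 0.34 (SE 0.04), and RBCS1B, a Rubisco small subunit gene, was higher by 0.29 (SE 0.04).

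Many genes of DNA replication were higher in G34W. Of 32 tested replication and mitosis genes 14 (43.8%, against 20.5% of all tested genes) were called higher and 1 lower, with a median of 0.33. PCNA1, the sliding clamp of the replication fork, had 24.9, 18.4 and 22.3 TPM in G34W, against 12.5, 12.4 and 11.8 TPM in G34R and 11.5, 14.1 and 13.3 TPM in wild type (log2 difference 0.78, SE 0.10, adjusted p = 6.64e-05). RNR1, a large subunit of ribonucleotide reductase, had 32.3, 34.5 and 31.6 TPM in G34W, against 19.4, 19.2 and 23.8 TPM in G34R and 25.02, 23.1 and 26.3 TPM in wild type, and TSO2, a small subunit of the same enzyme, had 60.3, 55.5 and 61.7 TPM in G34W, against 44.7, 41.8 and 43.7 TPM in G34R and 51.4, 43.8 and 41.6 TPM in wild type. MCM7, of the replicative helicase, had 16.8, 15.99 and 15.9 TPM in G34W, against 10.11, 10.54 and 11.2 TPM in G34R. All 6 MCM genes listed (MCM2 to MCM7) were among the higher calls, MCM4 in the main analysis but not in every alternative, whereas the mitotic cyclin genes CYCB1;1, CYCB1;2 and CYCB1;4 were not called, at 0.15 to 0.27. The lower call, AUR2 (an Aurora kinase gene) at -0.45 ± 0.15, was lost without G34R replicate 2, G34W replicate 1 or G34W replicate 3. Wild type lay near G34R for PCNA1 and TSO2. The letters TTTCCCGC, an E2F site, were found on either strand in 3 of 32 windows of this list and in 0.54% of all windows.

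Genes of H3.1, made in S phase, were higher too. Of 5, HTR1, HTR9 and HTR13 were called higher, and HTR1 had 310.4, 315 and 346 TPM in G34W, against 265, 252 and 243 TPM in G34R and 202, 194 and 186 TPM in wild type. HTR13 was higher by 0.50 (SE 0.06) and HTR9 by 0.28 (SE 0.05), and the list summed to 743.0 to 799.1 TPM in G34W, 602.5 to 652.3 TPM in G34R and 431.6 to 452.4 TPM in wild type. Of the 3 linker histone genes H1.1 and H1.2 were called higher, at 0.32 ± 0.05 and 0.16 ± 0.03, and HIS1-3, a drought-induced variant, was called lower at -0.11 ± 0.04, a call lost without any 1 library other than G34W replicate 2. Of 12 tested genes of the DNA damage list 0 were called by limma, 3 had an unadjusted p under 0.05, and 4 were called higher by limma's voom on recovered reads; 2 were called without G34R replicate 3 and 1 without G34W replicate 1. The closest, RPA1E, had 1.49, 1.85 and 2.98 TPM in G34W, against 1.06, 0.959 and 1.32 TPM in G34R (adjusted p = 0.0606).

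Only a minority of the genes that write, erase and carry chromatin marks passed the test. The difference was positive for 17 of 21 tested H3K36 and H3K4 methylation genes, 13 of 14 H3 chaperone genes, 16 of 17 Polycomb genes and 18 of 18 genes of DNA and H3K9 methylation. The median of all tested genes also lay above 0, at 0.07, and the share of all tested genes above 0 was not counted. The positive counts are therefore not read as a trait of these lists. In the same order, 9.52%, 35.7%, 23.5% and 22.2% were called higher, against 20.5% of all tested genes. Of the 21 tested H3K36 and H3K4 methylation genes 2 were called higher and 1 lower (median 0.19), with 7 higher calls without G34R replicate 3 and 1 without G34R replicate 1 or 2 or G34W replicate 2 or 3. SDG8, the main H3K36 methyltransferase gene, had 12.1, 14.1 and 13.1 TPM in G34W, against 6.94, 9.84 and 12.6 TPM in G34R and 12.8, 13.1 and 14.3 TPM in wild type, and the call was missed (adjusted p = 0.0556). JMJ30, a histone demethylase gene that follows the clock, was lower, with 1.51, 1.67 and 1.49 TPM in G34W, against 2.99, 3.19 and 3.37 TPM in G34R and 1.33, 1.37 and 1.32 TPM in wild type (log2 difference -0.71, SE 0.16, adjusted p = 0.00313). LDL1, an H3K4 demethylase gene, was higher by 0.41 (SE 0.10). Of the 14 H3 chaperone genes 5 were called higher (35.7%, against 20.5% of all tested genes; median 0.30), and 2 or 3 without G34R replicate 1 or 2 or any 1 G34W library. NRP1 and NRP2, histone chaperones of the NAP1 family, were higher by 0.32 (SE 0.05) and 0.40 (SE 0.07) in every alternative. The 4 higher calls among the 17 Polycomb genes (23.5%, median 0.19) numbered 1 or 2 without any 1 library other than G34R replicate 3 and 7 without that one. The 4 higher calls among the 18 genes of DNA and H3K9 methylation (22.2%, median 0.18) numbered 0 without G34R replicate 1 or G34W replicate 2, 7 without G34R replicate 3 and 1 without any of the others. After median-ratio scaling or quantile normalization 1 to 3 genes of each of these 4 lists were called higher. The median annotated span was 5303 bases for the H3K36 and H3K4 genes, 4575 bases for the chaperone genes, 3970 bases for the Polycomb genes and 6209 bases for the genes of DNA and H3K9 methylation, and long genes were higher in G34W as a class. With the tested genes in 5 equal classes by annotated span, 24.6% of the longest class were called higher and 4.28% lower, against 18.7% and 20.6% of the shortest class, and the median differences were 0.16 and -0.01. The part of this length trend in these lists, and in the photosystem genes with their median span of 1419 bases, was not tested. The trend also varied among libraries: the longest class stood above the shortest by 0.04, 0.09 and 0.10 in G34W and by -0.20, -0.09 and 0.04 in G34R (median log2 deviation from the mean of the 6 libraries), so the lines overlapped. Without G34R replicate 1 the difference between lines was 0.11 in place of 0.16, and without G34R replicate 3 it was 0.23.

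**Figure D4:**
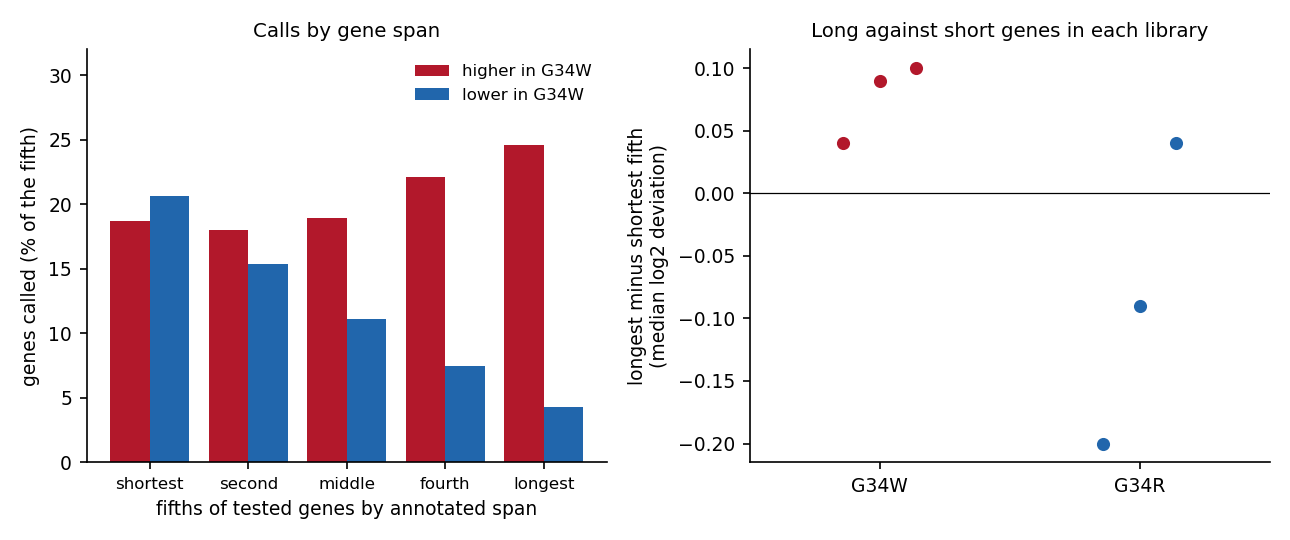
Left, the percentage of genes called higher or lower in G34W in 5 equal classes of the tested genes by annotated span; right, the median log2 deviation of the longest class minus that of the shortest in each library. Lower calls make up 20.6% of the shortest class and 4.28% of the longest, and on the right G34R replicate 3 lies level with G34W replicate 1 at 0.04.

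Among flowering genes a few members differed. FT, the mobile flowering signal made in leaves, had 3.83, 4.07 and 2.44 TPM in G34W, against 0.375, 0.281 and 0.792 TPM in G34R and 0.183, 0.377 and 0.581 TPM in wild type (log2 difference 1.58, SE 0.21, adjusted p = 5.87e-05), so all 3 G34W libraries lay above the others at low levels. FLC, the repressor on which the vernalization pathway acts, had 0 reads in each G34W library against 9, 13 and 12 reads in G34R. FLC lay below the filter of 1 TPM in the lines and was not tested. With 3 reads per library as a floor, the FLC level in G34W was at least 3.58-fold lower than that in G34R. It was at least 32.2-fold lower than that in wild type, which averaged 2.45 TPM. FLC was thus low in both lines, and G34R also lay below wild type. FLM, a relative of FLC that also delays flowering, had 5.56, 4.56 and 4.57 TPM in G34W, against 9.66, 10.2 and 10.9 TPM in G34R and 14.1, 15.6 and 13.99 TPM in wild type (log2 difference -0.94, SE 0.12, adjusted p = 4.33e-05). SOC1, a floral integrator downstream of FT, had 25.3, 24.9 and 22.5 TPM in G34W, against 23.1, 22.9 and 28.2 TPM in G34R and was not called (log2 difference -0.02, SE 0.09, adjusted p = 0.88). TEM1, a repressor of FT, was higher, with 96.1, 105 and 95.2 TPM in G34W, against 54.8, 55.4 and 58.0 TPM in G34R and 84.2, 85.8 and 84.6 TPM in wild type, and TEM2 was higher by 0.52 (SE 0.04). SPL4, a promoter of the floral transition, was lower by 0.93 (SE 0.17). Of 11 tested floral repressors 2 were called higher and 3 lower; the lower calls numbered 1 without G34R replicate 2 or G34W replicate 3, and 6 after median-ratio scaling and 5 after quantile normalization. SEP3 was the 1 of 9 floral organ genes above the filter, at 2.66 ± 0.18 TPM in G34W and 1.59 ± 0.27 TPM in G34R (SD, n = 3 each).

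Among clock genes expressed in the morning 7 of 14 were called higher and 2 lower (median 0.15). LHY, a core morning factor, had 156, 159 and 155 TPM in G34W, against 108, 106 and 121 TPM in G34R and 186, 180.1 and 183 TPM in wild type, LNK2 was higher by 0.36 (SE 0.05) and RVE1 was lower by 0.54 (SE 0.05). Without G34W replicate 3 there was 1 lower call. Sampling hour is not given in the sources used here. Of 13 tested PIF and shade genes 2 (15.4%) were called higher and 3 (23.1%) lower (median -0.10), against the same shares. There was 1 higher call without G34R replicate 2 or G34W replicate 2. PIF4, which promotes elongation in warmth and shade, had 78.9, 81.4 and 77.4 TPM in G34W, against 119.7, 122 and 129 TPM in G34R and 139.8, 147 and 148 TPM in wild type, and HFR1, an inhibitor of PIF proteins induced in shade, was lower by 0.55 (SE 0.11), as was the shade-induced factor gene ATHB2 at -0.33 ± 0.09. The higher calls were PAR1, an inhibitor of the shade response, at 0.41 ± 0.08, and HAT2 at 0.19 ± 0.06. The call of ATHB2 was lost without G34W replicate 3, and that of HAT2 without G34R replicate 2, G34W replicate 1 or G34W replicate 2 and after either rescaling.

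Several rapid stress regulators were higher in G34W but below wild type. WRKY40 had 3.87, 5.02 and 2.68 TPM in G34W, against 0.871, 1.22 and 0.613 TPM in G34R and 11.9, 13.0 and 16.1 TPM in wild type. CAF1A, a deadenylase gene induced by wounding, had 12.8, 17.1 and 14.3 TPM in G34W, against 8.31, 9.25 and 7.88 TPM in G34R and 53.4, 52.4 and 52.7 TPM in wild type, and WRKY33, a defence regulator, had 28.2, 30.8 and 28.1 TPM in G34W, against 20.07, 20.5 and 21.7 TPM in G34R and 47.0, 50.3 and 45.0 TPM in wild type. ZAT7, a zinc finger gene, had 5.08, 5.56 and 6.25 TPM in G34W, against 0, 1.62 and 1.04 TPM in G34R and 1.92, 2.304 and 2.28 TPM in wild type and so exceeded wild type as well. Of 13 tested stress WRKY genes 4 were called higher and 1 lower, and the share of 30.8% and the median of 0.10 were close to the 20.5% and 0.07 of all tested genes. Of 12 zinc finger and CAF1 genes 5 (41.7%, against 20.5% of all tested genes) were called higher (median 0.26), and 3 without G34R replicate 2, G34W replicate 2 or G34W replicate 3. ACS6, which makes the ethylene precursor under stress, was lower, with 18.5, 20.3 and 18.8 TPM in G34W, against 27.4, 27.3 and 24.9 TPM in G34R and 117, 121 and 116 TPM in wild type, while ACS11 of the same family was higher by 1.01 (SE 0.11). Of 15 tested flavonoid genes 5 were called higher (33.3%, against 20.5% of all tested genes) and 1 lower, and the median of 0.23 was 0.08 without G34R replicate 1 and 0.13 without G34W replicate 2. TT4, chalcone synthase, had 213, 197 and 209.7 TPM in G34W, against 132, 119 and 116 TPM in G34R and 128, 132 and 127 TPM in wild type, FLS1, which makes flavonols, was higher by 0.87 (SE 0.07), and DFR, of the anthocyanin branch, was lower by 0.57 (SE 0.13).

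Growth and surface protein families held calls in both directions. GASA6, a gibberellin-regulated peptide gene that promotes seed germination, had 56.3, 57.2 and 52.8 TPM in G34W, against 232, 253 and 268 TPM in G34R and 193, 200.3 and 203 TPM in wild type (log2 difference -2.16, SE 0.06, adjusted p = 5.87e-12), whereas GASA1 of the same family had 428, 416 and 394 TPM in G34W, against 196, 230.3 and 215 TPM in G34R and 437, 447 and 431 TPM in wild type. Among expansins, which loosen cell walls, EXPA1 was higher by 0.59 (SE 0.04) and EXPA8 lower by 0.89 (SE 0.06). Of 16 aquaporin genes 5 (31.2%) were called higher and 6 (37.5%) lower, against 20.5% and 11.8% of all tested genes. PIP1;1 stood at -0.37 ± 0.03 and TIP2;1 at 0.31 ± 0.02. The higher calls numbered 3 without G34R replicate 2, G34W replicate 2 or G34W replicate 3. Of 6 tested lipid transfer protein genes 4 (66.7%) were called lower and 1 (16.7%) higher, against 11.8% and 20.5% of all tested genes. The median of that list was -0.42. Among lipid transfer proteins LTP3 had 7.30, 6.65 and 6.20 TPM in G34W, against 19.1, 19.7 and 23.4 TPM in G34R and 1.12, 1.15 and 0.53 TPM in wild type, while AZI1, which is tied to systemic defence, had 7.11, 8.66 and 10.07 TPM in G34W, against 4.07, 2.39 and 2.06 TPM in G34R and 10.4, 4.96 and 8.46 TPM in wild type. Of 13 tested stomatal lineage genes 2 (15.4%) were called higher and 1 (7.69%) lower, both below the shares over all tested genes. Their median was 0.24. Without G34R replicate 2, G34W replicate 2 or G34W replicate 3 there were 0 higher calls. The lower call, against the direction of the median, was STOMAGEN, a peptide gene that raises stomatal number, at -0.65 (SE 0.07). Of 9 genes often used as references 3 were called higher, and after median-ratio scaling 1 was higher and 1 lower. UBQ10 had 1375, 1432 and 1447 TPM in G34W, against 1030.4, 1051 and 1033 TPM in G34R and 1269.7, 1224 and 1232 TPM in wild type, and ACT2 differed by 0.11 ± 0.03.

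**Figure D5:**
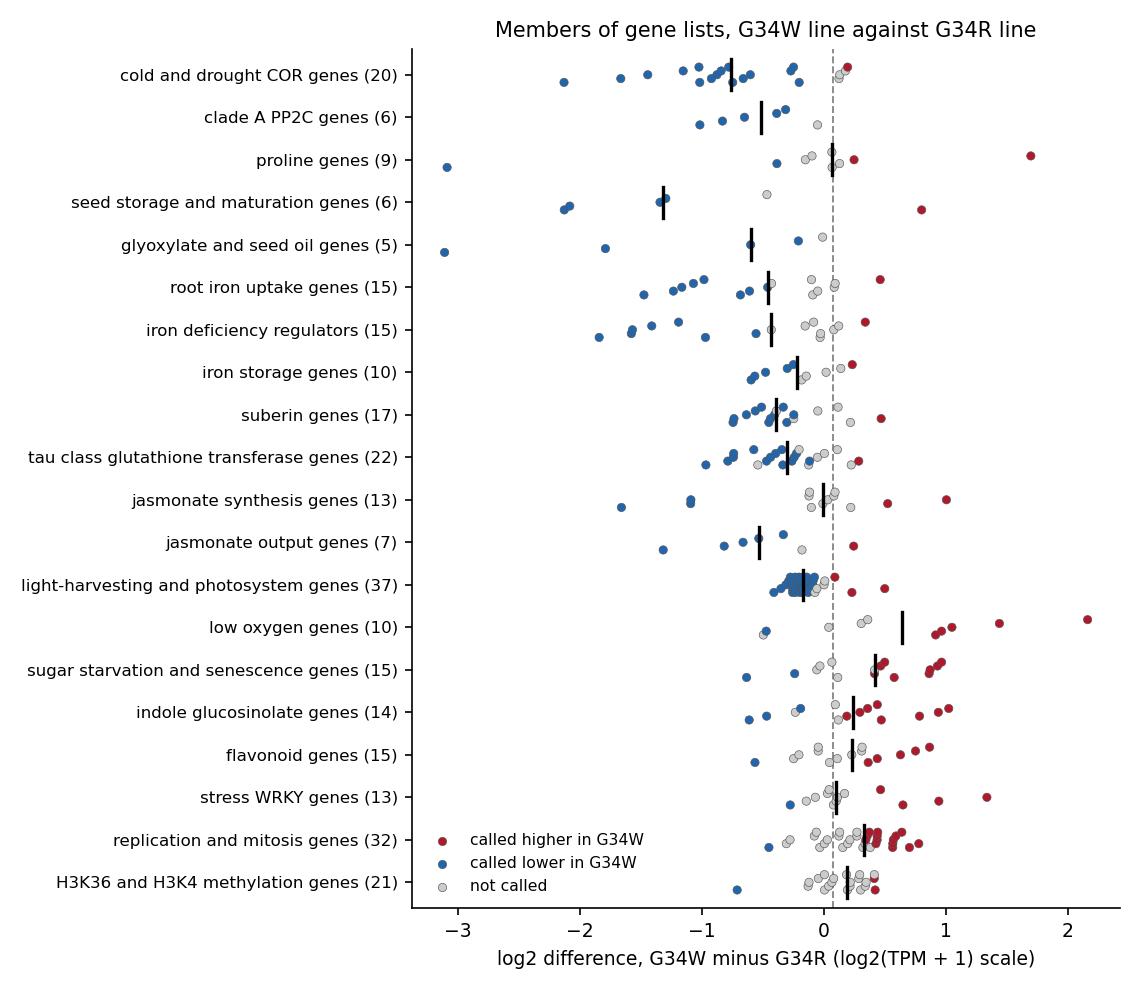
Log2 difference between G34W and G34R of each tested member of 20 gene lists (points, coloured where called), with the list median (black bar), the median of all tested genes (dashed line at 0.07) and the number of tested members in parentheses. The COR, phosphatase, seed, iron and suberin lists lie mostly left of the dashed line and the low oxygen, sugar starvation and replication lists mostly right of it.

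Among the 12 symbol-bearing genes that were highest in G34W, 8 belonged to none of the lists. GAT1_2.1, a glutamine amidotransferase gene, had 17.41, 22.1 and 16.8 TPM in G34W, against 1.3001, 1.56 and 1.96 TPM in G34R and 6.88, 7.51 and 9.05 TPM in wild type (log2 difference 2.92, SE 0.14, adjusted p = 5.44e-09). PCC1, a small pathogen- and clock-controlled gene, had 18.5, 14.5 and 14.7 TPM in G34W, against 1.95, 1.46 and 2.79 TPM in G34R and 3.33, 3.27 and 2.41 TPM in wild type. XYL4, a beta-xylosidase gene, had 118, 123 and 114 TPM in G34W, against 42.4, 37.5 and 39.6 TPM in G34R and 32.2, 33.9 and 31.5 TPM in wild type. BCB, a blue copper-binding protein gene, was higher by 1.69 (SE 0.11), PMT6, a polyol transporter gene, by 1.69 (SE 0.11), and MIOX2, which oxidizes myo-inositol, by 1.49 (SE 0.10). MEE3 was higher by 1.53 and ARL by 1.38 (SE 0.18 and 0.13). Among the 12 that were lowest, SIS, a salt-induced serine-rich gene, had 19.6, 20.12 and 18.25 TPM in G34W, against 65.0, 55.3 and 61.0 TPM in G34R and 33.4, 27.8 and 24.6 TPM in wild type, and FLP1 was lower by 1.49 (SE 0.13). SIS thus stood highest in G34R, whereas PCC1 and XYL4 stood highest in G34W. For PCC1 and XYL4 wild type lay near G34R, and for SIS it lay between the lines, nearer to G34W.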

How the data were processed

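Whole seedlings were profiled by RNA-seq. Per the labels, a Takara MiniBEST kit gave the total RNA and an NEBNext Ultra RNA kit the libraries. The submitters' processing notes name the TAIR10 genome, HISAT2 2.1.10, fastp 0.20.1 and DESeq2 1.26.0. The authors deposited 1 table of TPM, which sums to 1000000 in each library. Which counter was used, and whether it used strand, is not given in the sources used here. Overlapping, antisense and near-identical genes can exchange reads. Reads were recovered as whole multiples (relative tolerance 1e-06) for all 23235 genes above 0 (100%), and the gene span in the TAIR10.1 assembly, introns included, served as length for 99.37% of them.

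Groups and replicate numbers came from the sample titles. Genes whose TPM averaged 1 or more over the 6 line libraries entered limma 3.58.1 (R 4.3.3) as log2(TPM + 1), G34W minus G34R, with moderated variances and a trend, two-sided, Benjamini-Hochberg adjusted over all 18588 genes, at 0.05. This scale understates differences of low genes. Wild type is given as levels, with no test. On simulated data 96.0% of genes changed by 1 log2 unit and 60.0% of those changed by 0.5 were called. The 200 changed genes lay above 5 TPM, and noise was drawn independently for each gene. Recovery for genes between 1 and 5 TPM, or under a trend shared by many genes, was therefore not tested. Only 200 of 18588 genes were changed, whereas 32.2% were called in the data, and Benjamini-Hochberg adjustment depends on that share. The simulated rates therefore need not hold for these data. Replicates differed by more than counting noise (chi-square per degree of freedom 1.82 to 1.96 in G34W, 2.55 to 5.48 in G34R), so none was taken as repeat sequencing of one library. This does not show that they came from separate plants. Named genes were HTR4, HTR5, HTR8, FLC, FT and SOC1, the 12 largest called differences in each direction among genes that had a symbol, averaged 5 TPM or more and did not overlap between lines, and per list at most 4 called members, by smallest adjusted p, or 1 member by smallest p in a list with no call; other members named were chosen after their values were seen. The members and lists were chosen with earlier results of these data known. Sequences were read from the RefSeq copy of TAIR10.1. Alternatives were other pseudocounts (0.1, 0.5), filters, scalings, the fit with wild type, no variance trend, voom on recovered reads, a replicate block and leaving out each library. Floors of 3 reads cover counting error only.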

Additional observations from a re-analysis of the deposited data

How the results depend on the processing

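Among the 16 alternatives the number of genes called higher ranged from 2646 after median-ratio scaling to 4413 without G34R replicate 3, and that of genes called lower from 1678 without G34R replicate 2 to 2998 after median-ratio scaling, all within 1.5 times the main counts. Leaving out 1 library gave 2836 to 4413 higher and 1678 to 2101 lower calls. Of the 146 called genes with a fitted difference in the text, 133 kept their direction and call in every alternative in which they were tested, and 0 changed sign. Many of these genes were named for a large difference or a small adjusted p, which favours a lasting call. The share for all called genes was not counted. The calls of HTR5, MYC4, FER4, P5CDH, HVA22D, SEP3, AUR2, ACT2, HIS1-3, HAT2, ATHB2, H1.2 and DIN6 were lost in 1 to 11 alternatives. SOC1, which was not called, lay between -0.07 and 0.07 when 1 library was left out, above 0 without G34R replicate 3 (0.07) or G34W replicate 3 (0.03). Same-numbered libraries of the lines did not deviate together (r = 0.038, -0.014 and 0.037), so the numbers were not taken as pairs; a replicate block gave 3906 higher and 2227 lower calls. Of 74 list counts 34 stayed within 1.5 times in every alternative. The median SD between the libraries of a line, 0.0895 log2 units in G34W and 0.111 in G34R, limits what small differences can be resolved.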

Other observations

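Some large differences lay at loci without a symbol in the lists or the reference table, and they were chosen after their values were seen. AT3G16670 had 99.8, 94.9 and 85.7 TPM in G34W, against 14.5, 12.3 and 11.8 TPM in G34R and 45.7, 37.1 and 37.7 TPM in wild type, and AT1G75945 had 29.9, 34.6 and 33.4 TPM in G34W, against 3.98, 3.29 and 2.43 TPM in G34R and 28.4, 29.7 and 30.6 TPM in wild type, so at AT1G75945 G34R was the line that stood apart from wild type. AT5G55450 had 19.5, 22.5 and 20.01 TPM in G34W, against 3.19, 2.59 and 2.76 TPM in G34R and 2.98, 3.06 and 2.52 TPM in wild type. In the other direction AT1G68250 had 0, 1.54 and 1.29 TPM in G34W, against 17.36, 12.3 and 15.4 TPM in G34R and 0, 0.399 and 0.553 TPM in wild type. AT3G44970 had 0.106, 0.0562 and 0.215 TPM in G34W, against 5.41, 6.44 and 6.86 TPM in G34R and 38.5, 36.6 and 39.8 TPM in wild type, lower in both lines than in wild type and lowest in G34W. AT5G23115 was listed at 0 in all 3 wild-type libraries and had 82.8, 93.5 and 52.7 TPM in G34W, against 24.3, 25.4 and 30.7 TPM in G34R. No gene was listed at 0 in all 3 libraries of one line with at least 10 recovered reads in every library of the other.

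The wild-type level placed the called genes as follows. Of the 3802 genes higher in G34W, wild type lay between the lines for 43.2%, below both for 41.2% and above both for 15.6%. Of the 2187 lower genes it lay between for 25.6%, below both for 50.1% and above both for 24.4%. Among the genes at least 2-fold apart it lay between the lines for 64.7% of the 119 higher and 52.9% of the 138 lower. These shares use the means of the same libraries that gave the calls, so they describe and test nothing.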
